A study of Homo sapiens with 12 samples.

Results

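EGR1, EGR2, EGR3, NR4A1, NR4A2, NR4A3, IER2, IER3, IER5 and SRF, 10 genes of the early response to serum, were described in human HEK293T cells treated with STM2457 or with its solvent DMSO. The genes were chosen by name, and their symbols were mapped to Ensembl identifiers. They were 10 of the 60662 genes in the RNA count files and 10 of the 12224 genes in the deposited table of translational efficiency. All 10 passed the filters on low values, among 17807 genes tested in RNA and 10906 tested in ribosome footprints.

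The HEK293T line, an established line derived from human embryonic kidney, is labelled wild type (WT) in all groups. STM2457 inhibits METTL3, the enzyme that places N6-methyladenosine (m6A) on mRNA, and the series asks how m6A depletion affects translation. The treated arm received 20 µM STM2457 in 0.2% DMSO (v/v) and the control arm 0.2% DMSO, both for 6 h in medium with 10% fetal bovine serum. In both arms, a further 10% serum was given 1 h before the cells were lysed, and cycloheximide, which stalls elongating ribosomes, was added at 100 µg/ml for the final 3 min. RNA-seq of poly(A)-selected RNA had 4 libraries per arm, and Ribo-seq, the sequencing of 26 to 34 nt mRNA fragments protected by ribosomes, had 2 libraries per arm. The libraries analysed here all received the extra serum, so the size of the serum response itself was not measured, and the values compare STM2457 with DMSO in serum-stimulated cells. The labels do not say whether replicates were separate cultures, so p-values reflect only how much these libraries differ from one another, and that spread may be technical.

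Immediate early genes are transcribed within minutes of growth factor or serum stimulation, without the need for new protein synthesis, and their mRNAs are as a rule short-lived. Serum response factor (SRF) is a transcription factor that binds a DNA element called the CArG box, and it acts with ternary complex factors (ELK1, ELK3, ELK4), which respond to ERK signalling, or with myocardin-related factors (MRTFA, MRTFB), which respond to actin. The EGR proteins are zinc finger transcription factors, and the NR4A proteins are orphan nuclear receptors regulated mainly through their abundance. The IER genes were named as immediate early response genes.

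RefSeq promoters (GRCh38.p14), the 250 bases before an annotated transcript start, were held for EGR1, EGR2, NR4A1, NR4A3, IER2, IER5 and SRF, with 11 starts in all. They were searched for the CArG box, which is CC, then 6 bases that are each A or T, then GG. The element is its own reverse complement in this form, so both strands were covered. EGR1, EGR2 and SRF held it, at 3 of the 11 starts, and 1.16% of the 35116 promoters of that length held it. The upstream sequences of EGR1 (chr5:138465229-138465478, plus strand) and SRF (chr6:43171019-43171268, plus strand) and the 30 bases around the match of EGR2 (chr10:62816418-62816447, minus strand) are shown 5′ to 3′, because they are the only matches in the promoters held and SRF is itself one of the genes, with CArG boxes in capitals.

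EGR1: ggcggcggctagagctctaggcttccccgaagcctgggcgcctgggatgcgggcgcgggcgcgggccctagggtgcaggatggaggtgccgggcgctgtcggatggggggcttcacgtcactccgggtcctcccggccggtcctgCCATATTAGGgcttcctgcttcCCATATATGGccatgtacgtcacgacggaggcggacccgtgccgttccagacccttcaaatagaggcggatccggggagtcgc

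EGR2: gttcctcagtCCATATATGGgcagcgacgt

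SRF: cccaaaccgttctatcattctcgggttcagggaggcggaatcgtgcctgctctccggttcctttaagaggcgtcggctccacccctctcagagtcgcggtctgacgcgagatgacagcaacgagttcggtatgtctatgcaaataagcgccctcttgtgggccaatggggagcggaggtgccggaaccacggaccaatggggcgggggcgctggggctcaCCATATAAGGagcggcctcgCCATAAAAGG

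In EGR1 the boxes were CCATATTAGG and CCATATATGG, which began 105 and 83 bases before the start. In EGR2 the box was CCATATATGG, 71 bases before one of its annotated starts. In SRF the boxes were CCATATAAGG and CCATAAAAGG, 30 and 10 bases before 1 of its annotated starts. No CArG box lay in the windows of NR4A1, NR4A3, IER2 or IER5, which says only that these letters are not within that distance of those starts. The shorter motif TGACG, the core of the cyclic AMP response element, was read on both strands. It was in windows of EGR1, EGR2, NR4A3, IER2 and SRF, at 5 of the 11 starts, and in 21.2% of all promoters. NR4A3 held 4 copies of it, at 109, 91, 83 and 25 bases before the start. The full element TGACGTCA, which contains that core, was in 1.65% of all promoters. The EGR site GCGTGGGCG, the ETS motif CCGGAAGT and the TATA motif TATAAA, each read on both strands, were in 0.72%, 3.42% and 10.7%. None of these 4 motifs was in a window of the 7 genes. These matches describe the sequence and do not show that a factor was bound.

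The RNA-seq libraries held 43112223 to 51425432 counts assigned to genes, and the footprint reads recovered from the deposited table numbered 4711513 and 3198063 with DMSO and 4039314 and 3898620 with STM2457. Over all genes, 4669 were higher and 3842 lower in RNA with STM2457 (edgeR quasi-likelihood test, adjusted p under 0.05), which depends on the scaling: with the ERCC spike-in RNAs as reference, the split became 2159 higher and 8383 lower, and the log2 fold change of the median gene became -0.19. Spike-ins made up 0.389 to 0.408% of the counts with DMSO and 0.415 to 0.466% with STM2457, the highest in STM2457 replicate 4. The 7 markers of HEK293 cells summed to between 1019 and 1057 counts per 1000000 (CPM) with DMSO and between 1054 and 1091 CPM with STM2457, where 2 markers rose and 3 fell, among them NEFL and NEFM, which rose by 0.41 and 0.17 on the log2 scale (NEFM was at -0.02 with spike-in scaling), and KRT18 and INA, which fell by 0.41 and 0.11. The summed markers of fibroblasts (17.2 to 21.5 CPM with DMSO and 17.7 to 19.5 CPM with STM2457), of epithelial carcinoma lines (6.75 to 7.95 and 6.18 to 7.55 CPM) and of blood cells (2.20 to 2.59 and 2.19 to 2.46 CPM) overlapped between arms. None of the tested members of these 3 lists passed the test, and KRT5 and KRT19 had no count in any library. In bulk libraries, a change in the number of cells that express a gene cannot be told apart from a change in RNA per cell.

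With STM2457, the RNA level of 9 of the 10 genes was higher (edgeR, adjusted p under 0.05), and that of none was lower. Over all tested genes 26.2% were called higher and 21.6% lower. The 4 libraries of each arm did not overlap for 8 genes, all higher, against 24.9% of all genes higher without overlap and 19.8% lower. EGR1, EGR2, NR4A1, NR4A2, NR4A3 and IER5 were called with at least a 1.5-fold increase, as were 6.88% of all genes. The median log2 fold change was 0.60 over the 10 genes and 0.0025 over all tested genes. With spike-in scaling, 7 of the 10 passed, all higher, and the median of the 10 was 0.41, where 12.1% of all genes were called higher and 47.1% lower. The genes were chosen with earlier results of these data known, so these counts describe them and are not a test of the list.

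**Figure D1:**
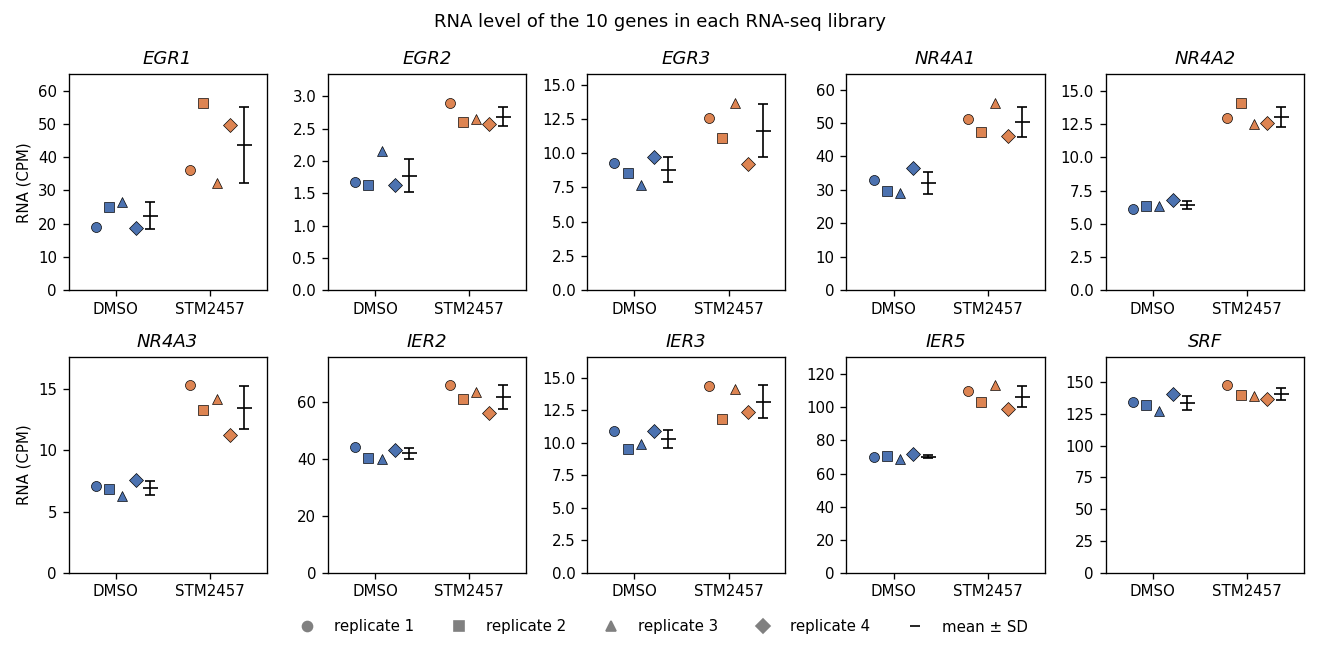
RNA level in CPM (vertical axes, from 0, a scale of its own for each gene) of the 10 genes in each RNA-seq library with DMSO (blue) and STM2457 (orange), with the mean ± SD of 4 libraries at the right of each arm. The arms are apart for 8 genes, and EGR3 (7.66 to 9.73 CPM with DMSO, 9.20 to 13.7 CPM with STM2457) and SRF (127 to 140.4 and 137 to 148 CPM) overlap.

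Among the EGR genes, EGR1 (ENSG00000120738.8, chromosome 5), a zinc finger activator and a classical early target of SRF, was at 19.1, 25.1, 26.6 and 18.8 CPM in DMSO replicates 1 to 4 and at 36.0, 56.4, 32.3 and 49.6 CPM in STM2457 replicates 1 to 4. The lowest STM2457 library was above the highest DMSO library, but both arms were spread. The EGR1 mean went from 22.4 ± 4.02 to 43.6 ± 11.3 CPM (n = 4 per arm, ± SD throughout), a log2 fold change of 0.96 (SE 0.17, edgeR adjusted p = 0.000381), or 1.95-fold. Its within-arm SD of 0.32 on the log2 scale was larger than that of 89.4% of tested genes.

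EGR2 (ENSG00000122877.16, chromosome 10), best known for its role in Schwann cells and in the hindbrain, had few reads, 81 to 102 per library with DMSO and 113 to 143 with STM2457. It was at 1.68, 1.62, 2.16 and 1.63 CPM with DMSO and at 2.90, 2.61, 2.66 and 2.57 CPM with STM2457. Replicate 3 stood above the other DMSO libraries, and the arms did not overlap. EGR2 rose 1.52-fold (log2 fold change 0.60, SE 0.11, edgeR adjusted p = 0.000492).

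EGR3 (ENSG00000179388.9, chromosome 8), a related activator with roles in lymphocytes and muscle spindles, was at 9.28, 8.56, 7.66 and 9.73 CPM with DMSO and at 12.6, 11.1, 13.7 and 9.20 CPM with STM2457. STM2457 replicate 4 lay within the DMSO range, and the other 3 lay above it. The increase from 8.81 ± 0.906 to 11.7 ± 1.94 CPM passed the test (log2 fold change 0.40, SE 0.11, edgeR adjusted p = 0.0101). It did not pass with spike-in scaling (log2 fold change 0.21, edgeR adjusted p = 0.105).

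The 3 NR4A receptors all rose in RNA. NR4A1 (ENSG00000123358.20, chromosome 12), also called NUR77, was at 32.9, 29.6, 29.2 and 36.5 CPM with DMSO and at 51.1, 47.3, 56.1 and 46.2 CPM with STM2457. The arms did not overlap. Its mean went from 32.1 ± 3.43 to 50.2 ± 4.47 CPM, with a log2 fold change of 0.65 (SE 0.08, edgeR adjusted p = 1.38e-05). The RefSeq annotation places NR4A1AS and 2 other loci over NR4A1, IER3-AS1 over IER3 and 1 locus over EGR3. The kit keeps strand, but whether the counting used it is not given in the sources used here, so reads of those partners cannot be told apart from the genes' own.

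NR4A2 (ENSG00000153234.14, chromosome 2), known as NURR1 and needed for dopaminergic neurons, was at 6.14, 6.37, 6.35 and 6.80 CPM with DMSO and at 13.0, 14.1, 12.5 and 12.6 CPM with STM2457. Each arm was tight and they were far apart. The 2.03-fold increase was the largest of the 10 genes in RNA (log2 fold change 1.02, SE 0.06, edgeR adjusted p = 2.39e-08), with EGR1 and NR4A3 next at 1.95-fold. The log2 fold change of NR4A2 lay within 1 SE of the EGR1 value and within 1 SE of the NR4A3 value.

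NR4A3 (ENSG00000119508.18, chromosome 9), known as NOR1, was at 7.07, 6.83, 6.26 and 7.60 CPM with DMSO and at 15.3, 13.3, 14.2 and 11.2 CPM with STM2457. Every STM2457 library was above every DMSO library. NR4A3 rose from 6.94 ± 0.553 to 13.5 ± 1.74 CPM (log2 fold change 0.96, SE 0.09, edgeR adjusted p = 2.44e-06).

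The 3 IER genes rose by 1.28-fold to 1.52-fold. IER2 (ENSG00000160888.7, chromosome 19), a nuclear protein with a role as a transcriptional cofactor, was at 44.0, 40.2, 40.0 and 43.1 CPM with DMSO and at 65.8, 60.9, 63.4 and 55.9 CPM with STM2457. The arms were apart, and IER2 rose from 41.8 ± 2.03 to 61.5 ± 4.22 CPM (log2 fold change 0.56, SE 0.05, edgeR adjusted p = 1.39e-06).

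IER3 (ENSG00000137331.12, chromosome 6), also called IEX-1 and linked to the control of apoptosis, was at 10.9, 9.54, 9.93 and 10.9 CPM with DMSO and at 14.3, 11.8, 14.1 and 12.4 CPM with STM2457. The arms were close but did not overlap. The increase to 1.28-fold passed the test (log2 fold change 0.35, SE 0.07, edgeR adjusted p = 0.00168), but not with spike-in scaling (log2 fold change 0.16, edgeR adjusted p = 0.134).

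IER5 (ENSG00000162783.10, chromosome 1), a cofactor of heat shock factor HSF1, was at 70.0, 70.4, 68.9 and 71.6 CPM with DMSO and at 110.0, 103, 113 and 99.3 CPM with STM2457. The DMSO libraries hardly differed from each other, and all STM2457 libraries were above them. IER5 rose 1.52-fold, from 70.2 ± 1.12 to 106 ± 6.39 CPM (log2 fold change 0.60, SE 0.04, edgeR adjusted p = 6.30e-08).

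SRF (ENSG00000112658.8, chromosome 6), the transcription factor itself, was at 134, 132, 127 and 140.4 CPM with DMSO and at 148, 140.0, 139 and 137 CPM with STM2457. The arms overlapped, because DMSO replicate 4 was above 3 of the STM2457 libraries. The SRF means were 133 ± 5.58 and 141 ± 4.78 CPM, a difference short of the threshold (edgeR adjusted p = 0.0789), with a log2 fold change of 0.08 (SE 0.03). Without DMSO replicate 4 the same comparison passed (log2 fold change 0.10, edgeR adjusted p = 0.0307), and with spike-in scaling the value turned to -0.12 (edgeR adjusted p = 0.0691).

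The 10 genes did not all vary together from library to library within an arm. EGR1 deviated from the mean log2 CPM of its arm by -0.21, 0.18, 0.26 and -0.23 in DMSO replicates 1 to 4 and by -0.24, 0.41, -0.39 and 0.22 in STM2457 replicates 1 to 4. EGR3 deviated by 0.08, -0.04, -0.19 and 0.15 and by 0.12, -0.05, 0.25 and -0.32. In all 8 libraries, EGR3 was therefore on the other side of its arm mean from EGR1. NR4A1, NR4A3, IER2 and IER3 were also on the other side from EGR1 in each library. EGR2, NR4A2, IER5 and SRF were on the side of EGR1 in some libraries and on the other side elsewhere.

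Of the 9 genes other than EGR1, the number above their arm mean was 6, 1, 1 and 8 in DMSO replicates 1 to 4 and 8, 1, 6 and 0 in STM2457 replicates 1 to 4. EGR1 was below its arm mean in the libraries with 6 or 8 and above it in those with 0 or 1. FOS and JUNB, a pair of AP-1 subunits that were picked for this comparison after their values had been seen, fell on opposite sides. FOS deviated by -0.25, 0.08, 0.26 and -0.09 with DMSO and by -0.43, 0.39, -0.26 and 0.29 with STM2457, on the side of EGR1 in each library. JUNB deviated by 0.04, -0.03, -0.23 and 0.21 and by 0.21, -0.15, 0.26 and -0.32, on the side of EGR3. FOSB, a further AP-1 subunit that was looked at, kept to neither side. It deviated by 0.11, -0.05, -0.12 and 0.05 with DMSO and by 0.06, 0.06, -0.01 and -0.11 with STM2457. FOSB was on the side of EGR1 in STM2457 replicates 2 and 3 and on that of EGR3 elsewhere. Differences between genes within a library do not depend on how the library is scaled. The side of the arm mean on which a gene falls, and the counts above that mean, do depend on it. Some deviations were close to 0, as for NR4A3 in replicate 2 of both arms (-0.02 with DMSO and -0.02 with STM2457). No test was made of this pattern, and the labels give nothing that separates the libraries of an arm other than the replicate number.

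**Figure D2:**
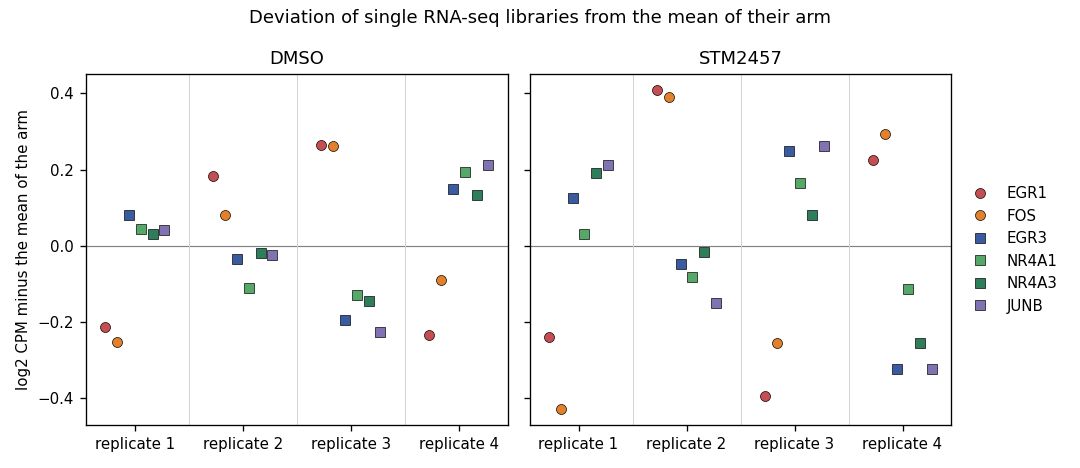
Log2 CPM minus the mean of the arm (vertical axis) for EGR1 and FOS (circles) and EGR3, NR4A1, NR4A3 and JUNB (squares) in RNA-seq replicates 1 to 4 of the DMSO and STM2457 arms. Circles and squares lie on opposite sides of 0 in all 8 libraries, as for EGR1 (0.41) and EGR3 (-0.05) in STM2457 replicate 2. Only genes with this split are shown. EGR2, NR4A2, IER5, SRF and FOSB, which did not keep to it, are left out, as are IER2 and IER3, which did.

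In ribosome footprints, 5 of the 10 genes were higher with STM2457 at a limma adjusted p under 0.05 (EGR1, NR4A1, NR4A2, IER2 and IER5), and none was lower. Over all tested genes 9.59% were called higher and 6.13% lower. With the edgeR test on recovered reads the count was also 5, with NR4A3 in place of NR4A1, against 10.2% of all genes called higher and 5.57% lower. The footprint libraries of the arms did not overlap for 7 genes that were higher and for SRF, which was lower, against 25.7% higher and 28.4% lower of all genes. The median log2 fold change was 0.50 over the 10 genes and -0.02 over all tested genes. Footprint fold changes are on the scale of log2(signal + 1), where the signal is the authors' normalized footprint value.

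EGR1 footprints were at a signal of 692 and 887 in DMSO replicates 1 and 2 and of 1359.7 and 1862 in STM2457 replicates 1 and 2, from 215, 184, 358 and 477 reads. The STM2457 libraries were far above the others. EGR1 footprints rose 2.03-fold (log2 fold change 1.02, SE 0.14, limma adjusted p = 9.96e-08), and with each library left out in turn they still passed.

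EGR2 footprints rested on 11 and 4 reads with DMSO and 14 and 21 with STM2457. The arms did not overlap, but the log2 fold change of 1.30 (SE 0.55) did not pass (limma adjusted p = 0.104), and it ranged from 0.88 to 1.73 with 1 library left out. EGR3 footprints were at a signal of 119 and 81.9 with DMSO and 98.7 and 50.8 with STM2457, from 37, 17, 26 and 13 reads. The arms of EGR3 overlapped, and the log2 fold change was -0.47 (SE 0.40, 95% interval -1.28 to 0.33, limma adjusted p = 0.488). The EGR3 value rests on single libraries, since it was -0.00068 without STM2457 replicate 2, -0.95 when STM2457 replicate 1 was dropped, and -0.21 or -0.74 when DMSO replicate 1 or 2 was dropped. None of these passed.

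NR4A1 footprints were at a signal of 637 and 443 with DMSO and 820.4 and 659.8 with STM2457. Each arm was spread, and the gap between the arms was small. The log2 fold change of 0.47 (SE 0.17) passed narrowly (limma adjusted p = 0.0489), and it was 0.21 without DMSO replicate 2 (limma adjusted p = 0.637) and 0.31 without STM2457 replicate 1 (limma adjusted p = 0.350). With edgeR on the reads, the NR4A1 value was 0.45 (adjusted p = 0.0529).

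NR4A2 footprints were at 113 and 120.5 with DMSO and at 266 and 226 with STM2457, from 35, 25, 70 and 58 reads. The arms were well apart, and the signal rose 2.10-fold (log2 fold change 1.07, SE 0.28, limma adjusted p = 0.00440). Without STM2457 replicate 1 it did not pass (log2 fold change 0.95, limma adjusted p = 0.0781). NR4A3 footprints, at 77.2 and 101 with DMSO and at 209 and 133 with STM2457, had a log2 fold change of 0.91 (SE 0.33) that missed the threshold with limma (adjusted p = 0.0540) and passed with edgeR (0.98, adjusted p = 0.0297). With 1 library left out, the NR4A3 value passed only without STM2457 replicate 2 (1.23, limma adjusted p = 0.0322), and it was 0.58 without STM2457 replicate 1 (limma adjusted p = 0.473), 0.71 without DMSO replicate 1 (limma adjusted p = 0.279) and 1.10 without DMSO replicate 2 (limma adjusted p = 0.0724).

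IER2 footprints were at a signal of 702 and 651 with DMSO and 919 and 1027 with STM2457, without overlap. They rose 1.44-fold (log2 fold change 0.52, SE 0.14, limma adjusted p = 0.00761), and did not pass without DMSO replicate 2 (limma adjusted p = 0.0913) or STM2457 replicate 2 (limma adjusted p = 0.0835). IER3 footprints were at 209 and 159 with DMSO and at 205 and 148 with STM2457. The arms of IER3 overlapped in part, with a log2 fold change of -0.06 (-0.30 to 0.17 with 1 library left out, SE 0.28, 95% interval -0.62 to 0.49, limma adjusted p = 0.920).

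IER5 had the most footprint reads of the 10 genes, 489 and 313 with DMSO and 533 and 472 with STM2457. Its signal was 1574 and 1509 with DMSO and 2024 and 1843 with STM2457, and the arms were apart. The increase to 1.25-fold passed (log2 fold change 0.33, SE 0.11, limma adjusted p = 0.0412), but not without DMSO replicate 1 (limma adjusted p = 0.111), DMSO replicate 2 (limma adjusted p = 0.247) or STM2457 replicate 1 (limma adjusted p = 0.214).

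SRF footprints were at 885 and 925 with DMSO and at 843 and 819.9 with STM2457. Both STM2457 libraries were lower, by little. The log2 fold change of -0.12 (SE 0.14, 95% interval -0.40 to 0.16) did not pass (limma adjusted p = 0.636).

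**Figure D3:**
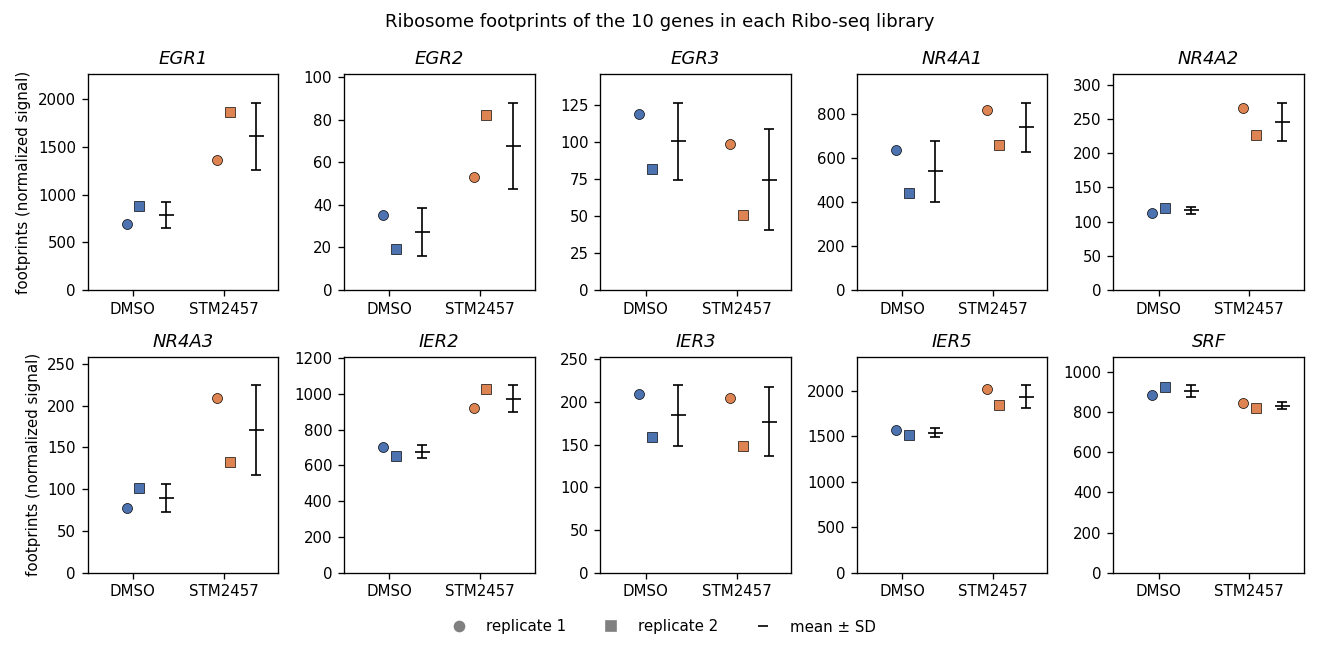
Normalized footprint signal (vertical axes, from 0, a scale of its own for each gene) of the 10 genes in each Ribo-seq library with DMSO (blue) and STM2457 (orange), with the mean ± SD of 2 libraries at the right of each arm. The arms are apart for EGR1 (692 and 887 against 1359.7 and 1862) and 7 other genes, and overlap for EGR3 and IER3.

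Set side by side, the RNA and footprint changes were close for EGR1 (log2 fold change 0.96 in RNA and 1.02 in footprints), NR4A2 (1.02 and 1.07), NR4A3 (0.96 and 0.91) and IER2 (0.56 and 0.52). For IER5 they were 0.60 and 0.33, and for IER3 0.35 and -0.06. EGR3 had the widest gap with footprints on the lower side (0.40 and -0.47, or -0.00068 in footprints without STM2457 replicate 2), and EGR2 the widest with footprints on the higher side (0.60 and 1.30). Those 2 genes also had the fewest footprint reads of the 10. EGR1, NR4A2, IER2 and IER5 passed in RNA and, with either tool, in footprints, while NR4A1 passed in footprints with limma alone and NR4A3 with edgeR alone.

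**Figure D4:**
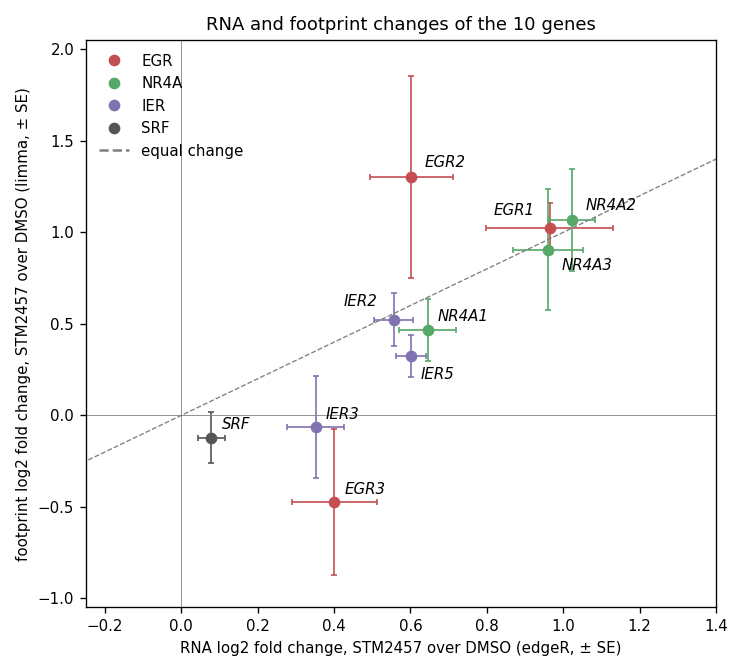
RNA log2 fold change (horizontal axis, edgeR) against footprint log2 fold change (vertical axis, limma on log2 of signal + 1) of STM2457 over DMSO for the 10 genes, with bars of 1 SE and a dashed line of equal change. NR4A2 (1.02, 1.07) and EGR1 (0.96, 1.02) lie near the line, IER5 (0.60, 0.33) below it, and EGR3 (0.40, -0.47) farthest below it.

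Translational efficiency, the footprint signal per RNA signal, was compared between the arms by the interaction term of assay with treatment. None of the 10 genes passed with limma and a weight per assay (adjusted p from 0.808 to 0.983), and none had an unadjusted p under 0.05. With the edgeR interaction on counts and recovered reads none passed either, and the smallest adjusted p was 0.126, for IER5. Over all tested genes 0.229% were called higher and 0.807% lower with limma, 1.04% in either direction, 9.4% had an unadjusted p under 0.05, and 4.79% were called with edgeR. The median log2 change of efficiency was -0.09 over the 10 genes and 0.01 over all tested genes.

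The intervals were wide, and a missed threshold does not show that efficiency was alike in the arms. For EGR1 the log2 change of efficiency was 0.15 (95% interval -1.04 to 1.35), for EGR2 0.68 (-0.54 to 1.91) and for EGR3 -0.68 (-1.83 to 0.47). For NR4A1 it was -0.07 (-0.73 to 0.59), for NR4A2 0.08 (-0.49 to 0.65) and for NR4A3 -0.11 (-1.12 to 0.91). For IER2 it was -0.08 (-0.53 to 0.37), for IER3 -0.38 (-1.09 to 0.32) and for IER5 -0.20 (-0.57 to 0.18). SRF had the narrowest interval, -0.39 to 0.20 around -0.09. A 2-fold change of efficiency in either direction was outside the interval only for NR4A1, NR4A2, IER2, IER5 and SRF.

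In the authors' deposited table, the efficiency of the 10 genes with DMSO ranged from 0.649 for SRF to 2.51 for IER5. The IER5 value in the authors' deposited table was above that of 96.8% of the filtered genes, the EGR1 value (2.26) above 95.2% and the IER3 value (1.98) above 91.7%. NR4A3 (1.75), IER2 (1.73), EGR3 (1.52), NR4A2 (1.43) and EGR2 (1.20) were also above the median of 1.04 in the authors' deposited table, while NR4A1 (0.986) and SRF were below it. With STM2457 the authors' deposited table gave 2.75 for EGR1, 2.11 for IER5, 2.09 for EGR2, 1.55 for IER2, 1.46 for IER3, 1.45 for NR4A2 and NR4A3, 0.861 for EGR3 and NR4A1 and 0.586 for SRF. The authors' mean RNA signal equals that of replicates 1 to 3 in all 12224 genes of the authors' deposited table, which touches EGR1 through its spread in RNA. With all 4 RNA-seq replicates, the ratio for EGR1 was 2.39 with DMSO and 2.65 with STM2457.

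Replicate numbers 1 and 2 were used in both assays, but the labels do not say that RNA-seq and Ribo-seq libraries of one number came from the same cells. The order of replicates 1 and 2 was the same in RNA signal and in footprints for 6 of the 10 genes with DMSO and for 7 with STM2457, against 51.4% and 49.6% of all tested genes, so the numbers showed no link between the assays over all genes. Within the footprint libraries alone, EGR1 was higher in replicate 2 than in replicate 1 of both arms (887 against 692, and 1862 against 1359.7). EGR3 was lower (81.9 against 119, and 50.8 against 98.7), as was NR4A1 (443 against 637, and 659.8 against 820.4). NR4A3 was higher in replicate 2 with DMSO (101 against 77.2) and lower with STM2457 (133 against 209). EGR2, with few reads, was lower with DMSO (19.3 against 35.4) and higher with STM2457 (82.0 against 53.2).

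The genes around these 10 were counted from lists by role. Among corepressors and relatives of the EGR proteins, NAB2 (log2 fold change 0.47) and NAB1 (0.24) rose in RNA (edgeR adjusted p = 0.000207 and 0.000152), and EGR4, at only 0.303 and 0.379 CPM, did not pass (0.31, edgeR adjusted p = 0.354). NAB1 and NAB2 bind EGR proteins and repress their activity. NAB2 passed with spike-in scaling too, and NAB1 did not (edgeR adjusted p = 0.529). Neither passed in footprints.

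Of 5 tested SRF cofactors, MRTFA (0.48), MRTFB (0.44), ELK4 (0.35) and ELK1 (0.11) rose in RNA and ELK3 (-0.04) did not pass (edgeR). Over all tested genes 26.2% were called higher and 21.6% lower. With spike-in scaling, 3 of the 5 cofactors were higher, ELK3 was lower, and ELK1 turned to -0.09 and did not pass. That scaling gave 12.1% higher and 47.1% lower over all genes. MRTFA footprints rose as well (log2 fold change 0.51, SE 0.13, limma adjusted p = 0.00249). ELK4 went the opposite way in the 2 assays. Its RNA rose to 104 ± 9.99 CPM from 81.1 ± 3.99 CPM, while its footprint signal was 212 and 174 with DMSO and 110.1 and 70.3 with STM2457, from 66, 36, 29 and 18 reads. ELK4 footprints fell by 1.12 on the log2 scale (SE 0.32, limma adjusted p = 0.0106), and its efficiency fell by 1.28 (SE 0.27, limma adjusted p = 0.0286) or, with the edgeR interaction, by 1.46 (adjusted p = 0.0187). ELK4 values stayed negative with each footprint library left out, at -1.44 to -0.80 in footprints and -1.60 to -0.96 in efficiency. Whether the limma calls passed depended on the library left out. ELK4 footprints did not pass without DMSO replicate 1 (-0.97, limma adjusted p = 0.155) or STM2457 replicate 2 (-0.80, limma adjusted p = 0.146), and efficiency passed only without STM2457 replicate 1 (limma adjusted p from 0.0171 to 0.235 over the 4 leave-outs).

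Among the RXR receptors, with which NR4A1 and NR4A2 can form heterodimers, RXRA (0.16) and RXRB (0.11) rose and RXRG (-0.39) fell in RNA (edgeR). With spike-in scaling RXRA turned to -0.04 and RXRB to -0.08, and neither passed. IER5L, a paralogue of IER5, rose from 4.24 ± 0.273 to 10.4 ± 1.31 CPM (log2 fold change 1.30, SE 0.09, edgeR adjusted p = 1.16e-07), and its footprints rose by 1.15 (SE 0.26, limma adjusted p = 0.000745). IER3IP1, which is named for its interaction with IER3, was at 38.2 ± 1.57 and 39.5 ± 1.95 CPM and did not pass (edgeR adjusted p = 0.395), while it was lower with spike-in scaling (edgeR adjusted p = 0.0290).

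Of 39 other immediate early genes, 30 rose and GADD45A (-0.32) fell in RNA with edgeR, with a median log2 fold change of 0.46, where 26.2% of all genes were called higher and 21.6% lower. With spike-in scaling the counts were 24 higher and 4 lower and the median 0.27, against 12.1% of all genes higher and 47.1% lower. RHOB, a small GTPase, rose by 1.31, MYC, a growth regulator, by 1.27, TRIB1, a pseudokinase, by 1.10, and DUSP1, a MAP kinase phosphatase, by 0.91. In footprints, 13 of 33 tested rose, and MCL1 and PPP1R15A fell (limma), against 9.59% of all genes higher and 6.13% lower. PPP1R15A had few reads, 22 and 34 with DMSO and 9 and 13 with STM2457. In efficiency, no gene of this list passed with limma. Of those called in footprints, MCL1 (-0.42, adjusted p = 0.000702) and RHOB (-0.40, adjusted p = 0.00194) were lower in efficiency with the edgeR interaction. MCL1 RNA, called higher at 0.10, was at -0.10 with spike-in scaling.

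Of 16 tested actin and cytoskeletal genes that SRF and MRTF proteins are known to activate, 1 rose and 6 fell in RNA with edgeR, with a median log2 fold change of -0.09, against 26.2% of all genes called higher and 21.6% lower. With spike-in scaling, 1 was higher and 12 were lower, against 12.1% and 47.1% of all genes. TAGLN, an actin-binding protein of smooth muscle, rose by 0.65 from a low level of 2.12 ± 0.139 CPM. FILIP1L fell by 0.81, ZYX, a focal adhesion protein, by 0.24, and FHL1, a LIM domain protein, by 0.13. None of the 13 tested in footprints passed with limma, against 9.59% of all genes called higher and 6.13% lower.

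**Figure D5:**
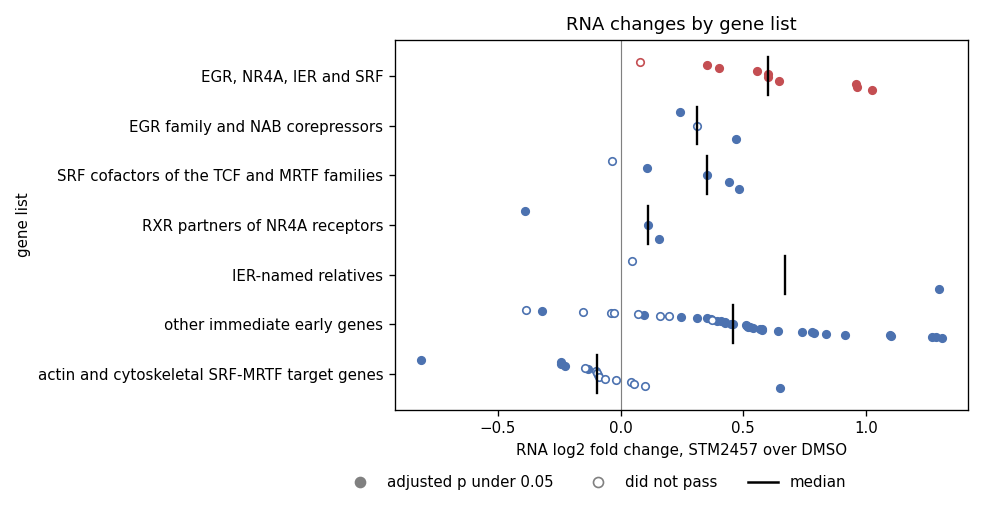
RNA log2 fold change of STM2457 over DMSO (horizontal axis, edgeR) of each tested gene (points, filled where adjusted p was under 0.05) in the 10 genes (red) and the lists of related genes (blue), with the median of each list as a bar. The medians were 0.60 for the 10 genes, 0.46 for other immediate early genes and -0.09 for actin and cytoskeletal targets.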

How the data were processed

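RNA and ribosome footprints were measured in HEK293T cells, with 4 RNA-seq and 2 Ribo-seq replicates per arm. The RNA-seq files deposited by the authors hold raw counts per gene and counts of 92 ERCC spike-in sequences, which were left out of tests. The table deposited by the authors holds a normalized signal per library, and the authors' translational efficiency as a ratio of mean footprint to mean RNA signal, with its change on a log2 scale. Table columns named WT were taken as the DMSO arm. No column of per-sample values was left unused (0 columns). The submitters' processing notes name the build GRCh38.p12 and the tools STAR 2.7.3a, featureCounts of Subread 2.0.3, SAMtools 1.10, UMI-tools 1.1.2, FastQC 0.11.9, DESeq2 and bedtools 2.29.2, in roles that are not given in the sources used here. Footprint signals were whole multiples of a step per library (100% of values within 0.1 of a whole read), so reads were recovered by division.

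In R 4.3.3, RNA was tested by the quasi-likelihood method of edgeR 4.0.16 (TMM, filterByExpr), footprints with limma 3.58.1 on log2(signal + 1) for genes with a mean of at least 10 reads, and efficiency as the limma interaction of assay and treatment with a weight per assay. Fits used the whole table, and p-values were Benjamini-Hochberg adjusted over all tested genes, with a threshold of 0.05. The limma fits used a variance trend, which was chosen after the files had been opened, because on simulated footprints of 10906 genes the fit without it made 0 calls. For edgeR, the SE is the size of the log2 fold change over the square root of F. CPM used TMM factors, and log2 CPM a prior count of 2. On simulated data edgeR recovered 70.4% of 1.5-fold and 91.8% of 2-fold RNA changes (17600 genes), and the footprint fit 48% and 79% (10906 genes). The efficiency fit recovered 17% and 59%, so it can miss such changes. Of the calls on simulated data, 4.82% were false in RNA, 7.3% in footprints and 6.17% in efficiency.

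The 10 genes were all named. Of each related list all genes were named where it had at most 6, otherwise the 4 with the smallest RNA p, and genes picked otherwise are said to be. List genes called in 1 direction alone or in opposite directions (ELK4, GADD45A, MCL1, PPP1R15A) were named after their values were seen. The same holds for FOS, JUNB and FOSB. The genes and lists were chosen with earlier results of these data known. Alternatives were DESeq2 1.42.0, spike-in scaling, filters, pseudocounts, a replicate block, leave-outs for ELK4 (added after seeing the data), subsets of replicates and each library left out. Symbols matched 60306 of 60662 gene IDs of the count files and 12216 of 12224 of the table. Transcript lengths were not used here, so RNA levels are not compared between genes.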

Additional observations from a re-analysis of the deposited data

Results flagged for a closer look

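In 3 of 90 groups of 4 RNA-seq libraries (1 of 20 for the 10 genes, the others for related genes), 1 library stood apart from the other 3 by Dixon's test, which chance does in about 1 in 20 groups. EGR2 was at 2.16 CPM in DMSO replicate 3, against 1.62 to 1.68 CPM in the other DMSO libraries, and every STM2457 library was above it. ELK1 was at 106 CPM in DMSO replicate 2, against 104.0 to 104.3 CPM in the others. HBA1, a blood marker, was at 0.160 CPM in DMSO replicate 2, against 0.317 to 0.343 CPM in the others.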

How the results depend on the processing

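In RNA, 7 to 10 of the 10 genes passed under every alternative. EGR1, EGR2, NR4A1, NR4A2, NR4A3, IER2 and IER5 passed in each of 14, with 9 to 10 genes passing when 1 library was left out. Over all genes that leave-out gave 7790 to 8647 calls. EGR3 also missed with replicates 3 and 4 alone (edgeR adjusted p = 0.0640). In footprints, leaving out 1 library, which assumes that the lone library of that arm varies like the other arm, gave 2 to 5 genes and 1004 to 1464 calls over all genes. Without the variance trend, added after seeing the data, 1 gene (NR4A2) and 232 genes in all passed, and the EGR1 limma adjusted p was 0.0945; the cause was not tested beyond the simulation named under processing. For efficiency, 0 of the 10 genes passed in any of 11 alternatives, while calls over all genes were 825 without a weight per assay (where 65.6% of calls on simulated data were false), 522 with the edgeR interaction, 70 without the trend, and 37 to 100 with 1 footprint library left out, where the cause was not tested. Among the 10 genes, no value that passed in the reported fits changed sign; SRF, which passed in 3 RNA alternatives, was at -0.12 with spike-in scaling, and of the related genes called in RNA, ELK1, RXRA, RXRB, MCL1 and NEFM turned negative with that scaling, none of them called. A replicate block gave 10 genes in RNA (SRF, edgeR adjusted p = 0.0348), 6 in footprints (NR4A3, limma adjusted p = 0.0474) and 0 in efficiency, with 9542, 1719 and 131 calls over all genes. Pairing was not adopted, because deviations of same-numbered RNA-seq libraries correlated by 0.15, 0.23, 0.15 and 0.08, the last under 0.1, and those of Ribo-seq libraries by 0.00641. DMSO replicates 1 to 3 correlated best with their own number and replicate 4 with another. Depth limits EGR2 and EGR3 most, with 4 to 21 and 13 to 37 footprint reads per library.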
